A study of Arabidopsis thaliana with 8 samples.

Results

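The JAZ genes of Arabidopsis thaliana were followed in young inflorescences of an lsh1 lsh3 lsh4 mutant. JAZ proteins are the repressors at the core of jasmonate signalling. In the resting state they bind MYC-type transcription factors and recruit the adaptor NINJA with co-repressors of the TOPLESS family. When the active hormone, the isoleucine conjugate of jasmonate, accumulates, the F-box protein COI1 binds JAZ proteins and marks them for degradation. Many JAZ genes are themselves induced by jasmonate and by wounding, and in flowers jasmonate is best known for stamen maturation and male fertility. The 10 members were taken by their AGI codes, namely JAZ1, JAZ2, JAZ3, JAZ5, JAZ6, JAZ7, JAZ8, JAZ9, JAZ10 and JAZ12. All 10 were found among the 22281 genes of the expression table, and all 10 passed the minimum mean of 1 FPKM (fragments scaled to gene length and library depth).

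The study compared lsh1 lsh3 lsh4 mutants (4 libraries, replicates 5 to 8) with wild type (4 libraries, replicates 1 to 4). Both are Col-0, the reference strain of the species, grown at 20 to 22 °C under 16 h of light and 8 h of dark. Tissue was taken from reproductive meristems together with flowers up to stage 8, and poly-A RNA was sequenced. LSH genes encode plant-specific nuclear proteins of the ALOG family. The labels give neither the alleles nor how many plants went into a library, so the spread that p-values rest on may be partly technical.

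Of the mutated genes, 2 of 3 fell. LSH4 had 3.79 to 7.25 FPKM in the mutants and 19.2 to 24.0 in wild type, and LSH1 had 2.198 to 4.26 FPKM in the mutants and 7.38 to 11.9 in wild type (limma adjusted p = 0.00773 for LSH4 and 0.0423 for LSH1). LSH3 overlapped, with 10.2 to 15.6 FPKM in the mutants and 10.5 to 23.3 in wild type (limma adjusted p = 0.607). The tissue label was checked against marker genes. STM and AP1, genes of shoot and floral meristems, were expressed in every library, with 62.1 to 69.0 FPKM of STM in the mutants and 76.8 to 98.6 in wild type, and 32.3 to 90.5 FPKM of AP1 in the mutants and 58.5 to 121 in wild type. All 6 tested genes of that list had negative values and none passed (median log2 fold change -0.20), with limma adjusted p = 0.145 for STM and 0.499 for AP1. STM did not overlap between genotypes, was the 1 gene of the list lower at an unadjusted p under 0.05, and is listed as lower in the authors' deposited table (-0.38, adjusted p = 0.00745). The part of these markers in the JAZ values was not tested. The stem cell genes WUS and CLV3 stayed at or below 1.699 FPKM in all 8 libraries. Of 6 genes of later flowers, AMS, MS2 and AT5G07230 were listed at 0 in all 4 mutants and reached at most 0.499 FPKM in wild type, QRT3 lay between 0.292 and 1.05 FPKM, and LAP6 and TKPR1 lay between 8.06 and 11.8 FPKM in all 8 libraries. Read totals were unknown. Steps between low values put the reads behind 1 FPKM at 1 to 1.41 times those of wild type replicate 1 in 6 libraries, and left mutant replicates 5 and 8 unsettled.

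JAZ9 rose in the mutant and was the most changed of the 10 members. It encodes a repressor of the clade that also holds JAZ3 and JAZ4. JAZ9 (AT1G70700) had 164, 122, 133 and 189 FPKM in mutant replicates 5 to 8, against 35.3, 60.0, 45.8 and 68.5 FPKM in wild type replicates 1 to 4. The lowest mutant library was therefore 1.79 times the highest wild-type library, and the genotypes did not overlap. The means were 152 ± 30.2 FPKM in the mutant and 52.4 ± 14.7 in wild type (SD, n = 4 each), a ratio of 2.896. The log2 fold change on the log2(FPKM + 1) scale was 1.54 (SE 0.21, 95% interval 1.05 to 2.03), with an adjusted p of 0.0425 from limma after Benjamini-Hochberg adjustment over 17706 genes. In bulk tissue, more cells that express a gene and more RNA per cell cannot be told apart. JAZ9 was the 1 member of 10 called higher and 0 were called lower, where 0.136% of all genes tested were called higher and 0.0508% lower. That call was close to the threshold. It was lost in each of the 8 fits that left out 1 library (adjusted p 0.0512 to 0.162), while the log2 fold change stayed between 1.37 and 1.68 and the unadjusted p between 4.55e-05 and 0.000382. It was also lost with no filter on low genes (adjusted p = 0.0582), after TPM rescaling (0.0605) and after quantile scaling (0.0549). The authors' deposited table lists JAZ9 as higher with a log2 fold change of 1.53 and an adjusted p of 2.37e-09.

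**Figure D1:**
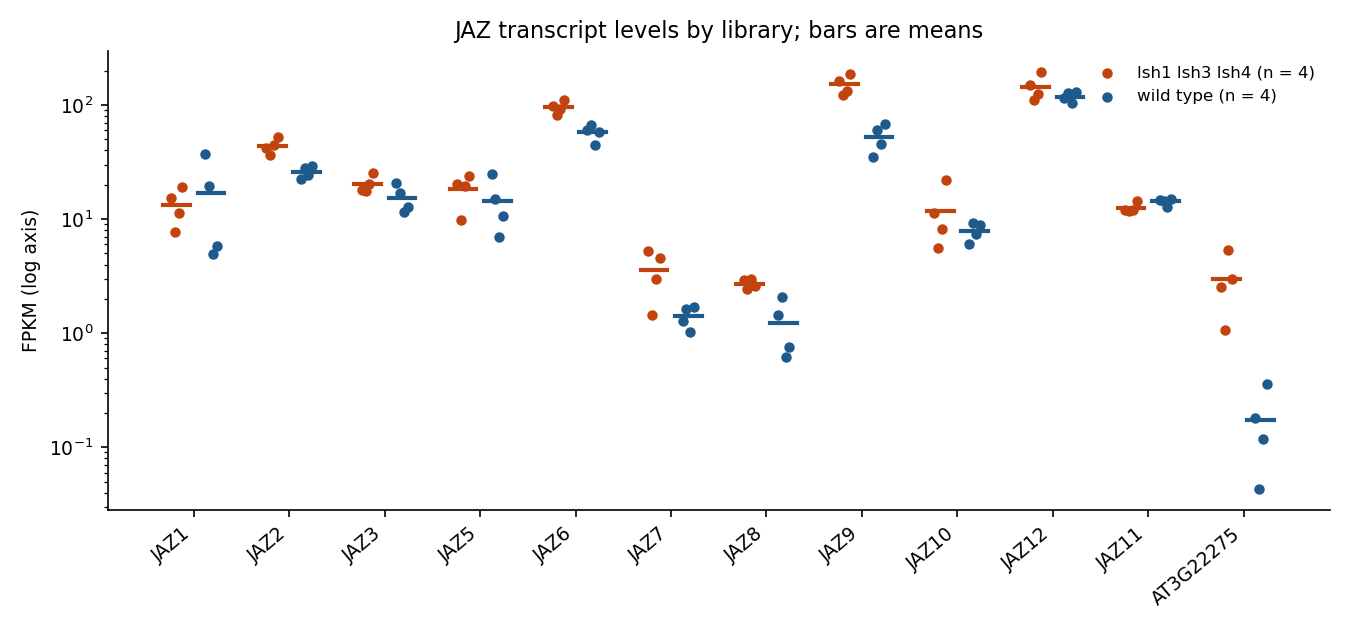
FPKM of each JAZ gene on a log axis, with 1 point per library, lsh1 lsh3 lsh4 left of wild type, and bars at the means of 4 libraries. JAZ9 and AT3G22275 show the widest separation, while JAZ1 spreads from 4.96 to 37.4 FPKM within wild type.

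JAZ2 and JAZ6 were the next members by p-value, with every mutant library above every wild-type library. They belong to the clade of JAZ1, JAZ2, JAZ5 and JAZ6. JAZ2 (AT1G74950) had 42.1, 36.4, 44.7 and 52.8 FPKM in mutant replicates 5 to 8, against 22.6, 28.0, 24.2 and 29.4 FPKM in wild type replicates 1 to 4. Its means were 43.99 ± 6.81 FPKM in the mutant and 26.0 ± 3.16 in wild type (SD, n = 4 each). JAZ6 (AT1G72450) had 98.4, 81.6, 93.0 and 111 FPKM in the mutants, against 60.9, 67.4, 45.0 and 57.7 FPKM in wild type. Its means were 96.0 ± 12.2 FPKM in the mutant and 57.8 ± 9.43 in wild type (SD, n = 4 each). Both genes had a log2 fold change of 0.73 (SE 0.13 for JAZ2 and 0.14 for JAZ6), and neither passed the test over all genes (limma adjusted p = 0.0817 for JAZ2 and 0.0948 for JAZ6). The authors' deposited table lists both as higher, JAZ2 with 0.75 (adjusted p = 6.70e-05) and JAZ6 with 0.73 (adjusted p = 0.000174). That table lists 3 of the 10 members, all as higher, where it lists 2.17% of the genes in the expression table as higher and 1.52% as lower.

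JAZ7 and JAZ8 were the least abundant members. Their products are known to contact TOPLESS directly and to resist jasmonate-triggered degradation, JAZ8 because it lacks a canonical degron. JAZ8 (AT1G30135) had 2.92, 2.42, 2.96 and 2.59 FPKM in the mutants, against 1.45, 2.09, 0.619 and 0.751 FPKM in wild type, so the genotypes did not overlap. JAZ7 (AT2G34600) had 5.27, 1.45, 3.01 and 4.59 FPKM in the mutants, against 1.29, 1.63, 1.02 and 1.68 FPKM in wild type. Mutant replicate 6 lay within the wild-type range for JAZ7, and the other mutants lay above it. The log2 fold changes were 0.79 for JAZ8 (SE 0.22, limma adjusted p = 0.191) and 0.85 for JAZ7 (SE 0.28, limma adjusted p = 0.277), and neither passed. With 1 library left out, the log2 fold change of JAZ7 was lowest without mutant replicate 5 (0.67, limma adjusted p = 0.511). It was highest without mutant replicate 6 (1.12, limma adjusted p = 0.0921). That library held the lowest mutant value, so leaving it out had to raise the fold change.

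JAZ12, JAZ3 and JAZ10 had positive values with overlapping genotypes. JAZ12 (AT5G20900), the most abundant member in wild type, had 150, 111, 124 and 196 FPKM in the mutants, against 115, 127, 104 and 130 FPKM in wild type (log2 fold change 0.26, 95% interval -0.12 to 0.64, limma adjusted p = 0.550). JAZ3 (AT3G17860), in which a truncated protein was first found to make plants insensitive to jasmonate, had 18.04, 17.6, 20.4 and 25.5 FPKM in the mutants, against 20.6, 16.8, 11.4 and 12.8 FPKM in wild type (0.40, 95% interval -0.025 to 0.83, limma adjusted p = 0.425). JAZ10 (AT5G13220), whose transcripts include splice forms that resist degradation, had 11.3, 5.64, 8.12 and 22.0 FPKM in the mutants, against 6.07, 9.22, 7.43 and 8.85 FPKM in wild type (0.38, 95% interval -0.40 to 1.15, limma adjusted p = 0.676). The JAZ10 value rested on mutant replicate 8, without which it was 0.042, and was 0.64 without mutant replicate 6. For JAZ12 the log2 fold change was 0.10 without mutant replicate 8 and 0.38 without mutant replicate 6.

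JAZ1 had the largest SD of the members within wild type, and JAZ5 also spread widely there. JAZ1 (AT1G19180), a repressor that binds MYC2 and the stamen factor MYB21, had 15.3, 7.79, 11.3 and 19.1 FPKM in mutant replicates 5 to 8, against 37.4, 19.4, 4.96 and 5.83 FPKM in wild type replicates 1 to 4. Wild type replicates 1 and 2 lay above all 4 mutants, and wild type replicates 3 and 4 lay below all of them. JAZ5 (AT1G17380) had 20.2, 9.75, 19.4 and 23.9 FPKM in the mutants, against 24.6, 14.9, 6.91 and 10.6 FPKM in wild type. The log2 fold changes were 0.037 for JAZ1 (95% interval -1.29 to 1.36, limma adjusted p = 0.985) and 0.41 for JAZ5 (-0.45 to 1.26, limma adjusted p = 0.687). For JAZ5 it was 0.70 without wild type replicate 1, 0.67 without mutant replicate 6, 0.26 without mutant replicate 8 and 0.13 without wild type replicate 3. The JAZ1 mean was lower in the mutant (13.4 ± 4.90 FPKM) than in wild type (16.9 ± 15.2; SD, n = 4 each), although its mean log2 value was slightly higher.

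Genes of touch, wounding and early stress were highest in wild type replicate 1, the library with the highest JAZ1 and JAZ5. Wild type replicate 2 was second highest in stress genes and in JAZ1 (19.4 FPKM). Its JAZ5 (14.9 FPKM) lay below mutant replicates 5, 7 and 8. Not every library shared that order. Wild type replicate 3, above every mutant in stress genes, held the lowest JAZ1 and JAZ5. Mutant replicate 8, lowest in stress genes, held the second highest JAZ5. The mean log2(FPKM + 1) of the 12 tested stress genes was 2.15 to 2.77 in the mutants, against 6.36, 4.59, 3.89 and 2.62 in wild type replicates 1 to 4. All 12 had negative log2 fold changes (median -1.90), and none passed over all genes with limma. At an unadjusted p under 0.05, 9 were lower, where 5.62% of all genes tested were. The authors' deposited table lists 9 of the 14 as lower, where it lists 1.52% of the genes in the expression table as lower. CBF2 had 0.173 to 0.482 FPKM in the mutants and 0.802 to 8.56 in wild type, and ZAT12 had 2.43 to 6.27 FPKM in the mutants and 6.99 to 83.0 in wild type. CBF2 and WRKY40, both among the 9 lower genes, averaged 0.271 and 0.576 FPKM in the mutant. They cleared the FPKM minimum only through wild type, so a difference was built into their being tested. Some jasmonate synthesis genes were also highest in wild type replicate 1. LOX3, LOX4, AOC3 and OPCL1, named after their values were seen, had 22.6, 16.2, 80.9 and 90.7 FPKM in wild type replicate 1, above every mutant library. In wild type replicate 2, AOC3 (68.4 FPKM) and OPCL1 (37.8 FPKM) also lay above every mutant library. LOX3 (6.99 FPKM) and LOX4 (2.68 FPKM) there lay below mutant replicate 8 (7.18 FPKM of LOX3 and 2.99 of LOX4). LOX2 went the other way, with its lowest value of all 8 libraries in wild type replicate 1, and AOC1 had its lowest wild-type value there (0.661 FPKM). MYC2, also named afterwards, had 95.6 FPKM in wild type replicate 1 and 21.8 to 40.1 FPKM in the other 7 libraries. JAZ9 had its lowest value in wild type replicate 1. Without wild type replicates 1 and 2, a setting chosen after the data were seen, the log2 fold changes were 1.104 for JAZ1, 0.94 for JAZ5, 1.14 for JAZ8 and 1.40 for JAZ9. No JAZ member passed in that fit (limma adjusted p 0.194 to 0.922 over the members), which called 0 of all genes tested, with 7 members higher at an unadjusted p under 0.05, where 4.43% of all genes tested in that fit were. The positive JAZ1 value there follows from the choice of libraries left out, since both lay above all 4 mutants. Those libraries also held the highest wild-type values of JAZ3, JAZ5, JAZ6 and JAZ8. Leaving them out therefore had to raise these fold changes, and the count of 7 members rests partly on that choice.

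**Figure D2:**
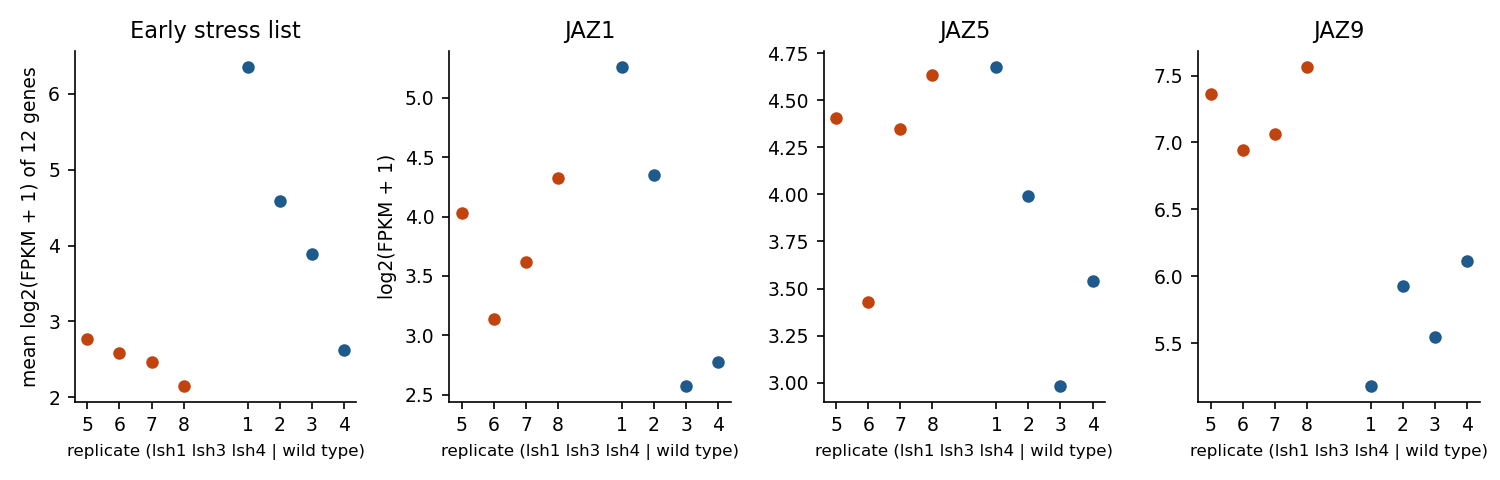
Mean log2(FPKM + 1) of 12 early stress genes and log2(FPKM + 1) of JAZ1, JAZ5 and JAZ9 in each library, with lsh1 lsh3 lsh4 (orange) left of wild type (blue). Wild type replicate 1 was the highest library for the stress list, JAZ1 and JAZ5 and the lowest for JAZ9.

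All 10 members had a positive log2 fold change, where 47.6% of all genes tested did. Their median was 0.57, against -0.0094 over all genes tested. At an unadjusted p under 0.05, 5 members were higher (JAZ2, JAZ6, JAZ7, JAZ8 and JAZ9) and 0 were lower, where 6.91% of all genes tested were higher and 5.62% lower. In 4 members the genotypes did not overlap (JAZ2, JAZ6, JAZ8 and JAZ9), all with higher values in the mutant, where 4.15% of all genes tested were higher and 3.74% lower without overlap. The sign of JAZ1 was not stable. With each library left out in turn, it was negative 4 times out of 8 (-0.35 at the lowest). Across these fits the median of the members lay between 0.47 and 0.73.

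**Figure D3:**
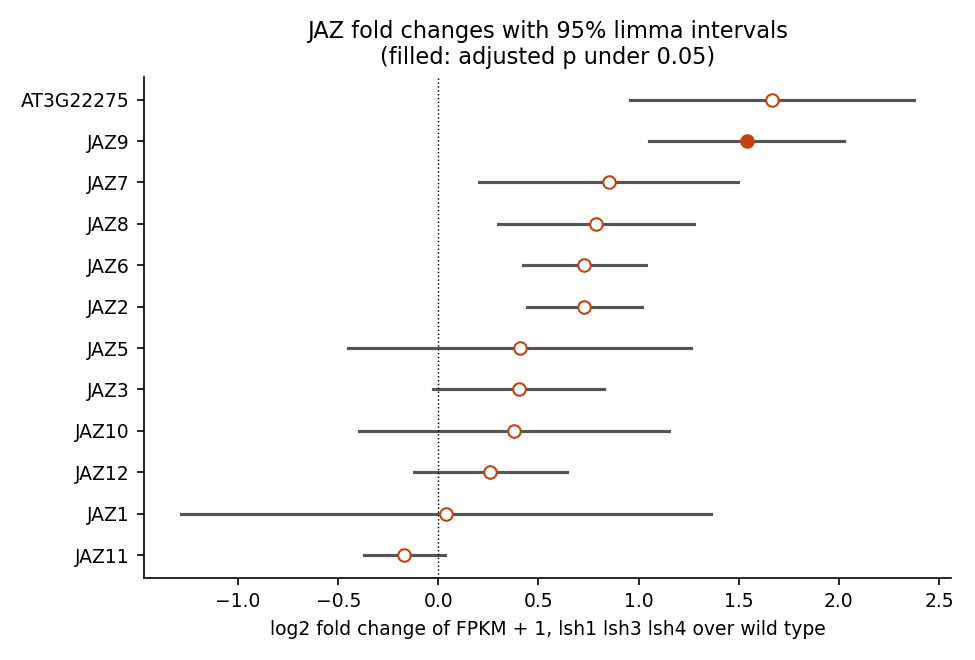
Log2 fold change of FPKM + 1, lsh1 lsh3 lsh4 over wild type, for the 12 JAZ genes that were tested, with 95% limma intervals. The filled point is JAZ9 (1.54), and the interval of JAZ1 runs from -1.29 to 1.36.

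FPKM is scaled to gene length, so levels of different members can be set side by side. The summed level of the 10 members was 527, 396, 459 and 646 FPKM in mutant replicates 5 to 8, against 325, 346, 252 and 326 FPKM in wild type replicates 1 to 4. Every mutant sum lay above every wild-type sum. That separation rested on JAZ9, with 122 FPKM in mutant replicate 6 and 35.3 and 60.0 FPKM in wild type replicates 1 and 2. Without JAZ9 the sum of mutant replicate 6 lay below those of wild type replicates 1 and 2. JAZ9 made up 28.9% to 31.1% of the sum in the mutants and 10.9% to 21.0% in wild type. JAZ12 made up 27.0% to 30.4% in the mutants and 35.3% to 41.4% in wild type, while JAZ6 kept 17.2% to 20.6% in the mutants and 17.7% to 19.5% in wild type. The lower JAZ12 share is a part of a larger sum, since its own mean was 145 FPKM in the mutant and 119 in wild type. In the mutant the order by mean FPKM was JAZ9, JAZ12, JAZ6, JAZ2, JAZ3, JAZ5, JAZ1, JAZ10, JAZ7 and JAZ8. In wild type it was JAZ12, JAZ6, JAZ9, JAZ2, JAZ1, JAZ3, JAZ5, JAZ10, JAZ7 and JAZ8. JAZ9 ranked first among members in mutant replicates 5, 6 and 7 and second in mutant replicate 8, and ranked between 2 and 4 in wild type. The ranges of JAZ9 and JAZ12 overlapped in the mutant, as did those of JAZ6 and JAZ9 in wild type. In both genotypes each of JAZ1, JAZ3 and JAZ5 overlapped the next lower member in the order, and JAZ7 overlapped JAZ8.

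**Figure D4:**
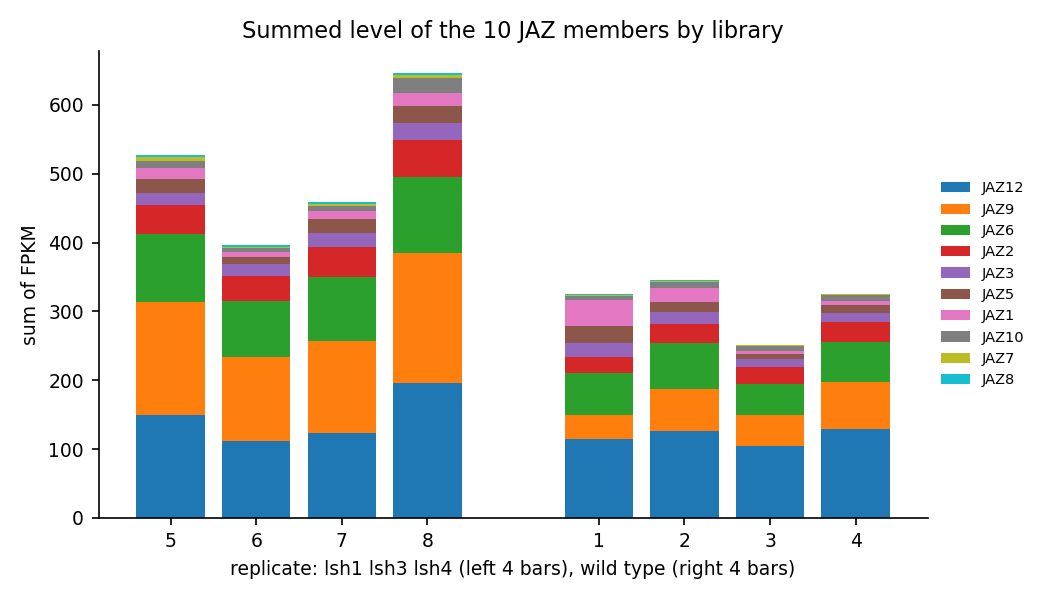
Summed FPKM of the 10 JAZ members in each library, stacked by gene, with the 4 lsh1 lsh3 lsh4 libraries left of the 4 wild-type libraries. The sums run from 396 to 646 FPKM in the mutants and from 252 to 346 FPKM in wild type.

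The mutant libraries differed among themselves in the same way for nearly all members. Mutant replicate 6 held the lowest mutant value of all 10 members, where it held the lowest mutant value of 28.7% of all genes tested. Mutant replicate 8 held the highest mutant value of 8 members, where it did so for 34.2% of all genes tested. In wild type, replicate 3 held the lowest value of 7 members, where it held that of 25.9% of all genes tested. These libraries also differed in tissue markers. The mean log2(FPKM + 1) of the 6 tested inflorescence and floral meristem genes was 4.198 in mutant replicate 6 and 5.72 in mutant replicate 8, and that of the 5 vascular and stem genes was 4.74 in mutant replicate 6 and 3.80 in mutant replicate 8. As for the meristem markers above, their part in these values was not tested.

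Closely related JAZ genes were compared within each library by the log2 ratio of FPKM + 1, which leaves out what both share. The ratio of JAZ9 to JAZ3 was 3.11, 2.72, 2.64 and 2.84 in the mutants, against 0.75, 1.78, 1.91 and 2.33 in wild type, with no overlap. Its mean was 1.14 higher in the mutant, with an exact 2-sided permutation p of 0.0286, the smallest that 4 against 4 libraries allow, and 0.0714 after adjustment over the 5 pairs compared. The ratio of JAZ12 to JAZ11 was 3.52, 3.12, 3.27 and 3.67 in the mutants, against 2.87, 3.04, 2.93 and 3.03 in wild type (difference 0.43, exact permutation p = 0.0286, adjusted 0.0714). The other 3 pairs overlapped. JAZ1 over JAZ2 differed by -0.69 (exact permutation p = 0.429), JAZ5 over JAZ6 by -0.32 (exact permutation p = 0.486) and JAZ7 over JAZ8 by 0.063 (exact permutation p = 0.829). After adjustment none of the 5 pairs passed 0.05.

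**Figure D5:**
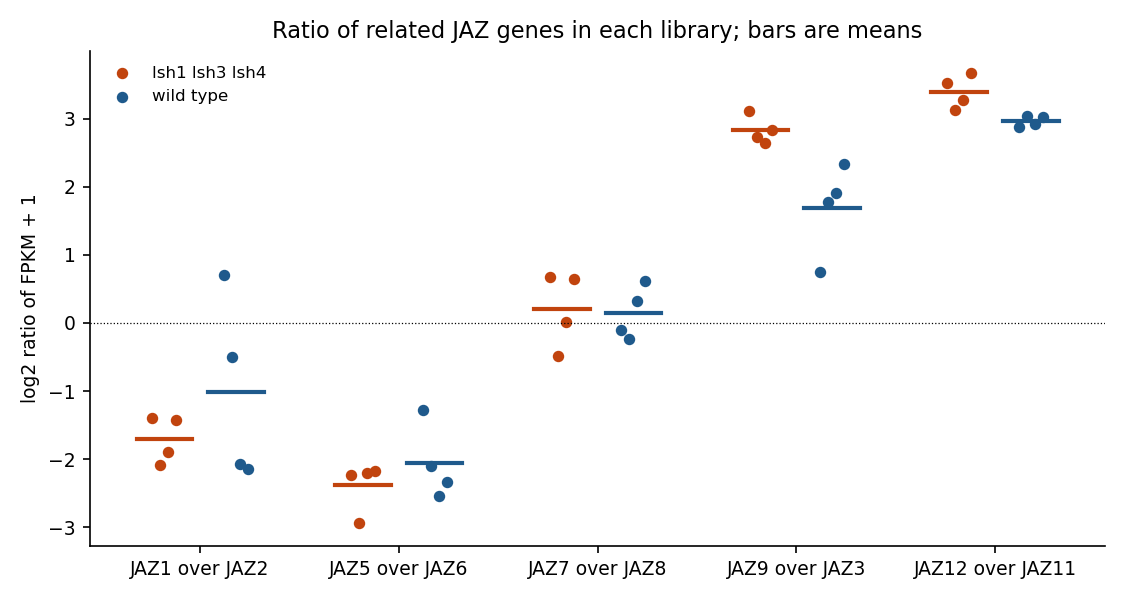
Log2 ratio of FPKM + 1 between related JAZ genes in each library, lsh1 lsh3 lsh4 left of wild type, with bars at the means. JAZ9 over JAZ3 and JAZ12 over JAZ11 do not overlap between genotypes, and JAZ1 over JAZ2 spreads from -2.15 to 0.70 within wild type.

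The family's other 3 genes differed from each other. AT3G22275, which RefSeq annotates as a jasmonate ZIM-domain protein with no symbol, had 2.55, 1.08, 5.41 and 3.002 FPKM in mutant replicates 5 to 8, against 0.180, 0.0431, 0.117 and 0.356 FPKM in wild type replicates 1 to 4. The genotypes did not overlap, and the means were 3.01 ± 1.80 FPKM in the mutant and 0.174 ± 0.134 in wild type (SD, n = 4 each). The relative depths of wild type replicates 1 to 4 were 1, 1.41, 1.05 and 1.37. At these depths the reads behind the 4 wild-type values stood at 2.96, 1, 2.02 and 7.99 times those of wild type replicate 2. These are near whole multiples, so the wild-type values may rest on a handful of reads. Mutant replicate 6 stood at 21.7, not near a whole multiple, and mutant replicate 7 at 120.97. The log2 fold change was 1.67 (SE 0.31, 95% interval 0.96 to 2.38), and the gene did not pass over all genes (limma adjusted p = 0.0948). It cleared the FPKM minimum only through the mutant, so a difference was built into its being tested. The value depends on the pseudocount and was 3.43 with a pseudocount of 0.1 (limma adjusted p = 0.0693). The authors' deposited table lists it as higher with a log2 fold change of 4.10 and an adjusted p of 4.38e-06. JAZ11 (AT3G43440), the closest relative of JAZ12, had 12.1, 11.9, 11.9 and 14.5 FPKM in the mutants, against 14.8, 14.5, 12.8 and 15.0 FPKM in wild type (-0.17, 95% interval -0.37 to 0.03, limma adjusted p = 0.473). JAZ4 (AT1G48500) stayed at or below 0.284 FPKM in all 8 libraries and was not tested. Among more distant TIFY genes none of 6 tested members passed at an adjusted or unadjusted p under 0.05 (median 0.016), and ZML2 (0.12) and PPD1 (-0.13) had the smallest p-values.

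The promoters were read because jasmonate-responsive JAZ genes are known targets of MYC2, which binds the G-box CACGTG. The 250 bases before each gene's most upstream annotated start were taken from RefSeq assembly TAIR10.1 with its own annotation, in which all 13 JAZ genes were found. The palindrome CACGTG, which reads the same on both strands, occurred in 4 of the 10 members (JAZ2, JAZ3, JAZ7 and JAZ8) and in AT3G22275, where 7.55% of 17667 promoters of tested genes held it. JAZ9, JAZ6, JAZ1, JAZ5, JAZ10 and JAZ12 had no match in this window, which says only that these letters are not in it. A related motif, AACGTG on either strand, which cannot overlap CACGTG, occurred in JAZ3, JAZ5, JAZ6 and JAZ12 and in AT3G22275, where 7.01% of promoters of tested genes held it. The stretches of 100 bases with a G-box are given 5′ to 3′ on the gene's strand, with CACGTG in capitals, since they include members with and without overlap between genotypes. The motif's first base lay 66 bases before the gene start in JAZ2 (chr1:28150460-28150559, minus strand), 140 and 82 bases before it in JAZ3 (chr3:6119549-6119648, plus strand), and 34 in JAZ7 (chr2:14572930-14573029, plus strand). It lay 10 bases before the start in JAZ8 (chr1:10596252-10596351, plus strand) and 95 in AT3G22275 (chr3:7879853-7879952, minus strand).
JAZ2: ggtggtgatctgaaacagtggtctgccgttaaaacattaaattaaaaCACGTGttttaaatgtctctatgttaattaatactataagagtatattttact
JAZ3: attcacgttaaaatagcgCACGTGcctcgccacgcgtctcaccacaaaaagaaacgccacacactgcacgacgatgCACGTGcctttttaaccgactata
JAZ7: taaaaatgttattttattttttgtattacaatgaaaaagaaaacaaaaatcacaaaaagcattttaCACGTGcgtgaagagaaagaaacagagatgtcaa
JAZ8: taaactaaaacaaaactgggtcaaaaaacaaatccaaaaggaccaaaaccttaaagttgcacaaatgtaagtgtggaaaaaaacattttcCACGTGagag
AT3G22275: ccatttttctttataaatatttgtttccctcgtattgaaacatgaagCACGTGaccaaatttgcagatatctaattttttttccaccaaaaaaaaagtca
Among the members with a G-box, JAZ2 and JAZ8 did not overlap between genotypes and JAZ3 and JAZ7 did. Among the members without one, JAZ6 and JAZ9 did not overlap and JAZ1, JAZ5, JAZ10 and JAZ12 did. No test was made of the motif against these values.

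Jasmonate receptor and co-repressor genes differed little. Of 9 tested genes, which include COI1, NINJA and the TOPLESS family, none passed, also at an unadjusted p under 0.05 with limma, and the log2 fold changes ran from -0.10 to 0.17 (median 0.043). TPR1, a co-repressor, had 32.5 to 36.2 FPKM in the mutants and 27.4 to 33.3 in wild type (0.14, limma adjusted p = 0.512). COI1 had 17.6 to 23.3 FPKM in the mutants and 16.8 to 18.3 in wild type (0.14, limma adjusted p = 0.550). Of 9 tested bHLH and MYB factors that JAZ proteins bind, none passed, and 1, MYC4, was higher at an unadjusted p under 0.05 (median 0.076). MYC4 had 12.9 to 18.1 FPKM in the mutants and 11.4 to 13.9 in wild type (0.26, limma adjusted p = 0.393), and MYC3 had 51.4 to 71.4 FPKM in the mutants and 39.5 to 53.9 in wild type (0.29, limma adjusted p = 0.399). MYC2 had a value of -0.25 (limma adjusted p = 0.835), and MYB21, the stamen factor, stayed at or below 0.297 FPKM in all 8 libraries. The 5 DELLA genes, whose products repress gibberellin responses and bind JAZ proteins, all had positive values without passing (median 0.28). Of these, 3 were higher at an unadjusted p under 0.05, where 6.91% of all genes tested were. RGA had 68.3 to 76.4 FPKM in the mutants and 55.9 to 66.6 in wild type (0.22, limma adjusted p = 0.266), and RGL1 had 19.0 to 26.4 FPKM in the mutants and 16.8 to 19.6 in wild type (0.30, limma adjusted p = 0.320).

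Genes of jasmonate breakdown did not pass the test, and most of those tested had positive values. Of 5 tested genes, 4 were higher in the mutant with no overlap between genotypes, where 4.15% of all genes tested were. At an unadjusted p under 0.05, 4 were higher, where 6.91% of all genes tested were, and 0 passed over all genes in limma (median 0.86). Among them AT5G05600 reached the FPKM minimum only through the mutant, so a difference was built into its being tested. ILL6, which encodes an amidohydrolase that cleaves hormone conjugates, had 9.72, 8.03, 10.04 and 15.7 FPKM in the mutants, against 5.67, 7.39, 4.72 and 3.62 FPKM in wild type (0.90, limma adjusted p = 0.176). IAR3, another conjugate hydrolase gene, had 39.1, 34.6, 41.8 and 58.8 FPKM in the mutants, against 27.7, 31.0, 23.6 and 29.6 FPKM in wild type (0.60, limma adjusted p = 0.185). The other two, named after their values were seen, were AT5G05600 and JRG21, which encode 2-oxoglutarate-dependent oxygenases. AT5G05600 had 4.72, 1.46, 2.88 and 14.2 FPKM in the mutants, against 0.251, 0.138, 0.614 and 0.919 FPKM in wild type (1.89, limma adjusted p = 0.185). The fifth, CYP94C1, a cytochrome P450 gene of jasmonate oxidation also named afterwards, averaged 0.869 ± 0.149 FPKM in the mutant and 1.502 ± 1.41 in wild type (SD, n = 4 each; -0.28, limma adjusted p = 0.758). CYP94C1 reached the FPKM minimum only through wild type, so a difference was built into its being tested as well. The authors' deposited table lists 4 of the 10 breakdown genes as higher and none as lower, namely AT5G05600 (3.59), JRG21 (1.29), ILL6 (1.02) and IAR3 (0.64). That table lists 2.17% of the genes in the expression table as higher.

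Synthesis and response genes went both ways. Of 13 tested synthesis genes none passed, with 7 positive and 6 negative values (median 0.049), and 1, LOX6, was higher at an unadjusted p under 0.05. AOC2, among the positive ones and named after its values were seen, averaged 1.75 FPKM in the mutant and 0.405 in wild type. It reached the FPKM minimum only through the mutant, so a difference was built into its being tested. LOX6, a lipoxygenase gene, had 26.3 to 30.2 FPKM in the mutants and 20.7 to 24.2 in wild type (0.28, limma adjusted p = 0.199), and is listed as higher in the authors' deposited table (0.29). AOC4, an allene oxide cyclase gene, had 91.5 to 120 FPKM in the mutants and 82.8 to 95.1 in wild type (0.199, limma adjusted p = 0.418). LOX2, a chloroplast lipoxygenase gene named after its values were seen, had 110.3, 28.0, 77.2 and 340.1 FPKM in the mutants, against 9.685, 36.4, 68.4 and 64.8 FPKM in wild type (1.39, limma adjusted p = 0.508). Of 9 tested response genes none passed (median 0.27), and 1, VSP2, was higher at an unadjusted p under 0.05. JMT, a response gene also named afterwards, reached the FPKM minimum only through the mutant, with means of 1.54 FPKM there and 0.860 in wild type. The vegetative storage protein gene VSP2, a classic jasmonate marker, had 896, 469, 572 and 1435 FPKM in the mutants, against 403, 458, 266 and 519 FPKM in wild type (0.94, limma adjusted p = 0.332). Its neighbour in the family, VSP1, had 1206, 901, 1616 and 2149 FPKM in the mutants, against 1778, 2475, 1533 and 2571 FPKM in wild type (-0.55, limma adjusted p = 0.464). Reads of these near-identical copies may have been divided between them, which leaves each value uncertain. The response gene NAC055, named after its values were seen, lay below the FPKM minimum and was not tested. It had 0.391 to 0.595 FPKM in the mutants and 0 to 0.152 in wild type. The authors' deposited table lists NAC055 as higher (2.87, adjusted p = 0.0147). Within the mutant, the synthesis, breakdown and response lists each had their lowest mean level in replicate 6 (3.58, 2.47 and 3.68 log2 units) and their highest in replicate 8 (4.69, 3.28 and 5.45), as most JAZ members did. This order was not particular to those lists. It also held for the more distant TIFY genes (4.70 and 4.95) and the receptor and co-repressor genes (5.26 and 5.53). The bHLH and MYB factors, DELLA genes, meristem genes and genes of later flowers shared it too. The stress, green tissue and vascular and stem lists did not.

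Green and stem markers were also higher in the mutant on average. All 10 green tissue genes had positive values (median 0.42) and none passed. Of these, 6 were higher at an unadjusted p under 0.05, where 6.91% of all genes tested were. Their mean level was 10.05 to 10.4 log2 units in the mutants and 9.45 to 10.2 in wild type, with wild type replicate 3 inside the mutant range. LHCB4.2 (0.67, limma adjusted p = 0.206) and LHCB2.1 (0.58, limma adjusted p = 0.290) had the smallest p-values. The authors' deposited table lists LHCB4.2 as higher (0.65, adjusted p = 0.0292). The 5 vascular and stem genes had a median of 0.37, none past an adjusted or unadjusted p of 0.05, and levels of 3.80 to 4.74 in the mutants and 3.28 to 4.36 in wild type (XCP2 0.41, limma adjusted p = 0.514; IRX1 0.44, limma adjusted p = 0.483). With the green tissue level as a covariate, a setting chosen after the data were seen, JAZ9 had a value of 1.83, but no gene passed in that fit. With the early stress level as a covariate JAZ9 had a value of 1.097 and did not pass (limma adjusted p = 0.186). The stress level went largely with genotype (2.15 to 2.77 in the mutants and 2.62 to 6.36 in wild type), and the green tissue level partly. These fits therefore cannot part genotype from either level.

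The genes whose profiles over the 8 libraries were most like that of JAZ9 were chosen by Pearson's r of log2(FPKM + 1) among tested genes, as a description. They were SCRM2 (r = 0.982), a bHLH gene with a known role in stomatal development, JAZ2 (0.978), the BEL1-like homeobox gene BLH5 (0.969), the DNA glycosylase gene DML2 (0.964), which acts in DNA demethylation, and AT3G49950 (0.964), annotated as a GRAS family transcription factor. These values mostly restate the gap between genotypes, since none of the 5 overlapped between them. SCRM2 had 21.0 to 24.4 FPKM in the mutants and 14.2 to 16.5 in wild type. BLH5 had 2.75 to 7.56 FPKM in the mutants and 0.745 to 1.51 in wild type. AT3G49950 had 1.05 to 2.25 FPKM in the mutants and 0.0809 to 0.619 in wild type. It cleared the FPKM minimum only through the mutant, so a difference was built into its being a candidate here. JAZ2 was the only other JAZ member among these 5 genes.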

How the data were processed

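Poly-A RNA from 8 libraries was analysed. The deposited expression table holds FPKM per gene and library, as the authors' file name says. Per the submitters' processing notes RSEM, DESeq2 and build TAIR10 were used, and no version, aligner, annotation or filter is stated there. FPKM keeps no read totals, so no counting interval is given. The second deposited table holds the authors' log2 fold changes with p-values and adjusted p-values, per the file headers.

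The test was limma 3.58.1 (R 4.3.3) on log2(FPKM + 1), with 2 groups, a mean-variance trend and 2-sided p-values. It ran over 17706 genes whose mean reached 1 FPKM, with Benjamini-Hochberg adjustment over all of them and a threshold of 0.05. Fold changes on this scale understate the change of low genes. The code was tested on simulated data. Relative depth was read from the commonest ratio between low values, kept where it led any other by 1.5 times.

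The members and the 15 gene lists (129 genes, 126 in the table, the other 3 not analysed here) were chosen with earlier results of these data known. Named were all members, the 3 other JAZ genes, per list the called genes or the 2 smallest p-values, and the 5 profiles most like JAZ9. Symbols came from RefSeq TAIR10.1 (22154 codes matched, 127 not), as did the promoters. Coordinates are of TAIR10.1, and the deposited files hold none. Paralogue ratios were tested by exact permutation. Alternatives were other pseudocounts, filters, scalings, robust moderation, library weights and leaving out libraries. Plots used matplotlib 3.10.9.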

Additional observations from a re-analysis of the deposited data

Results flagged for a closer look

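JAZ11 in mutant replicate 8 stood at 14.5 FPKM, apart from the other 3 mutant libraries, of which the nearest had 12.1 FPKM. It was the 1 group set apart in this way among 26 groups of 4 libraries examined (13 JAZ genes in each genotype), and about 1 in 20 groups is set apart by chance. Without that library the log2 fold change of JAZ11 was -0.23 (limma adjusted p = 0.312), against -0.17 with it.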

How the results depend on the processing

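No paired analysis was possible because the genotypes share no replicate number. FPKM without read totals limits what can be said of low genes. Counts of calls over all genes were 7 higher and 5 lower with no filter, 14 and 5 after TPM rescaling, and 1265 and 1058 with library weights, against 24 and 9. Leaving out 1 library gave 0 to 79 higher and 0 to 25 lower. JAZ members called higher were 3 with library weights (JAZ2, JAZ6 and JAZ9), and 0 with no filter, after TPM rescaling, after quantile scaling and in every fit without 1 library (0 to 0), against 1. The median of the members was 0.47 to 0.73 without 1 library. Settings chosen after the data were seen gave 0 higher and 0 lower without both wild type replicates 1 and 2 (0 members called, median 0.89), 0 higher and 2 lower with the early stress covariate (0 members called), and 0 and 0 with the green tissue covariate (0 members called, median 0.84).

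Signs turned for some values that did not pass. With library weights JAZ1 was -0.49, JAZ10 -0.043 and AOC1 (0.10) -0.47. TKPR1 (-0.011) was 0.0079 after TPM rescaling and -0.057 to 0.039 without 1 library. JAZ1 ranged from -0.35 to 0.54 without 1 library, MYC2 from -0.49 to 0.20 and AOC1 from -0.53 to 0.46. CYP94C1 fell below the FPKM minimum without wild type replicate 1. The difference of JAZ7 over JAZ8 was -0.062 with a pseudocount of 0.1 and -0.092 to 0.29 without 1 library. Without wild type replicates 1 and 2, MYC2 was 0.28, LOX3 0.0076, LOX4 0.27, AOC3 0.21, OPCL1 0.32 and AOC1 -0.35, and the differences were 0.41 for JAZ1 over JAZ2, 0.051 for JAZ5 over JAZ6 and -0.25 for JAZ7 over JAZ8. With the early stress covariate TPR1 was -0.013, MYC2 0.74, LOX3 0.36, LOX4 0.79, AOC3 0.35, OPCL1 0.64, LOX2 -0.14, AOC1 -0.76, CYP94C1 0.53 and LAP6 -0.079, and with the green tissue covariate PPD1 was 0.029 and AOC1 -0.13. The cause was not tested.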
